A study of Mus musculus with 22 samples.

Results

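The 10 genes described here lie beside or within the mouse Hox clusters: the coding genes Evx1, Evx2, Skap2, Lnpk and Mtx2, and the noncoding RNA genes Evx1os, Hottip, Halr1, Hoxaas3 and Gm53. They were taken by name from the 55055 genes counted in every table, and were chosen by their measured differences in these data, between Hox-/- and wild-type cells and between Activin A and Chiron treatment, together with their position. Those comparisons are therefore given as differences with no p-value; the number of the genes past edgeR's threshold in them is given only beside that of all genes, and supports nothing. Changes within one genotype, from embryonic stem cells to endoderm cultures and from 96 h to 120 h in gastruloids, were tested. These tests share libraries with the comparisons that chose the genes, so they are not independent of the choice.

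Poly(A) RNA was sequenced from 22 libraries in 10 groups, with 3 libraries in each endoderm group and 2 in every other group. Mouse embryonic stem (mES) cells, wild type or of the genotype labelled Hox-/- (written BADC in the titles), were kept with 100 ng/ml LIF, 3 µM CHIR99021, a GSK-3 inhibitor, and 1 µM PD0325901, a MEK inhibitor. Endoderm cultures of both genotypes received 100 ng/ml Activin A with 3 µM CHIR99021 at 24 h and again at 72 h, and were collected at 120 h. Gastruloids are aggregates of stem cells that elongate and pattern in culture. They were labelled Activin A (both genotypes) or Chiron (wild type), and were collected at 96 h or 120 h; the doses used for gastruloids are not given in the sources used here. Endoderm cultures and gastruloids are labelled as mixed cells. Nothing says that libraries of a group came from separate cultures or how many clones stand behind the Hox-/- label, so p-values measure only the spread between these libraries, which may be technical.

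As background, the Hox genes encode homeodomain transcription factors that give positional identity along the body axis, and they lie in clusters whose genes are switched on in their order along the chromosome, from group 1 towards group 13. The neighbourhood of a cluster holds enhancers that act on Hox genes and on bystander genes alike. The even-skipped homologues Evx1 and Evx2 sit beyond the group 13 end of HoxA and HoxD, and noncoding RNAs run between and against the Hox genes.

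Library depth ranged from 9108085 to 28819301 counts. Gastruloid libraries held 14953662 to 28819301 counts at 96 h and 9108085 to 11930416 at 120 h, so time and depth went together. The summed level of the 39 Hox genes was 859 CPM (counts scaled to one common library total) in wild-type and 25.8 CPM in Hox-/- endoderm, and 1179 against 66.6 CPM in Activin A gastruloids at 120 h. Hoxa13, at the end of HoxA, still gave 429 counts over the 3 endoderm libraries under the Hox-/- label. The summed level of 4 Y-linked genes was 105 to 177 CPM in the wild-type groups and at most 0.219 CPM in the Hox-/- groups, so genotype and cell line cannot be told apart. All 8 endoderm markers were detected in endoderm cultures of both genotypes. Their sum was 551 to 574 CPM in wild type against 176 to 181 CPM in Hox-/-, and 1288 to 1339 against 187 to 197 CPM in Activin A gastruloids at 120 h. In mES cells it was 271 to 284 CPM in wild type, above Hox-/- endoderm, and 118 to 123 CPM in Hox-/-. The sum therefore does not mark endoderm alone. The list, which includes Trh, was chosen with earlier results of these data known. The part of these differences in the results below was not tested. In bulk RNA, fewer cells of a type and less RNA per cell cannot be told apart.

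By position on mm10, 8 of the 10 genes lay outside a cluster, at 1.89 to 143 kb from its border, and 2 lay within one. Beyond the group 13 end of HoxA lay Hottip (chr6:52262775-52267603), Evx1os (chr6:52308389-52314832) and Evx1 (chr6:52313498-52318378), at 1.89, 47.5 and 52.6 kb from Hoxa13. On the other side of HoxA lay Halr1 (chr6:52102949-52113684), at 41.9 kb from the cluster, and Skap2 (chr6:51857422-52012549), at 143 kb. Around HoxD, Evx2 (chr2:74652991-74659557) and Lnpk (chr2:74520291-74579379) lay 8.75 and 88.9 kb beyond Hoxd13, and Mtx2 (chr2:74825803-74878431) lay 60.7 kb beyond Hoxd1. Hoxaas3 (chr6:52175217-52215076) ran inside HoxA on the strand opposite to the Hoxa genes, and Gm53 (chr11:96251105-96264868) lay inside HoxB, 6.59 kb from Hoxb9. Hoxaas3 and Gm53 are therefore within a cluster, not beside one.

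**Figure D1:**
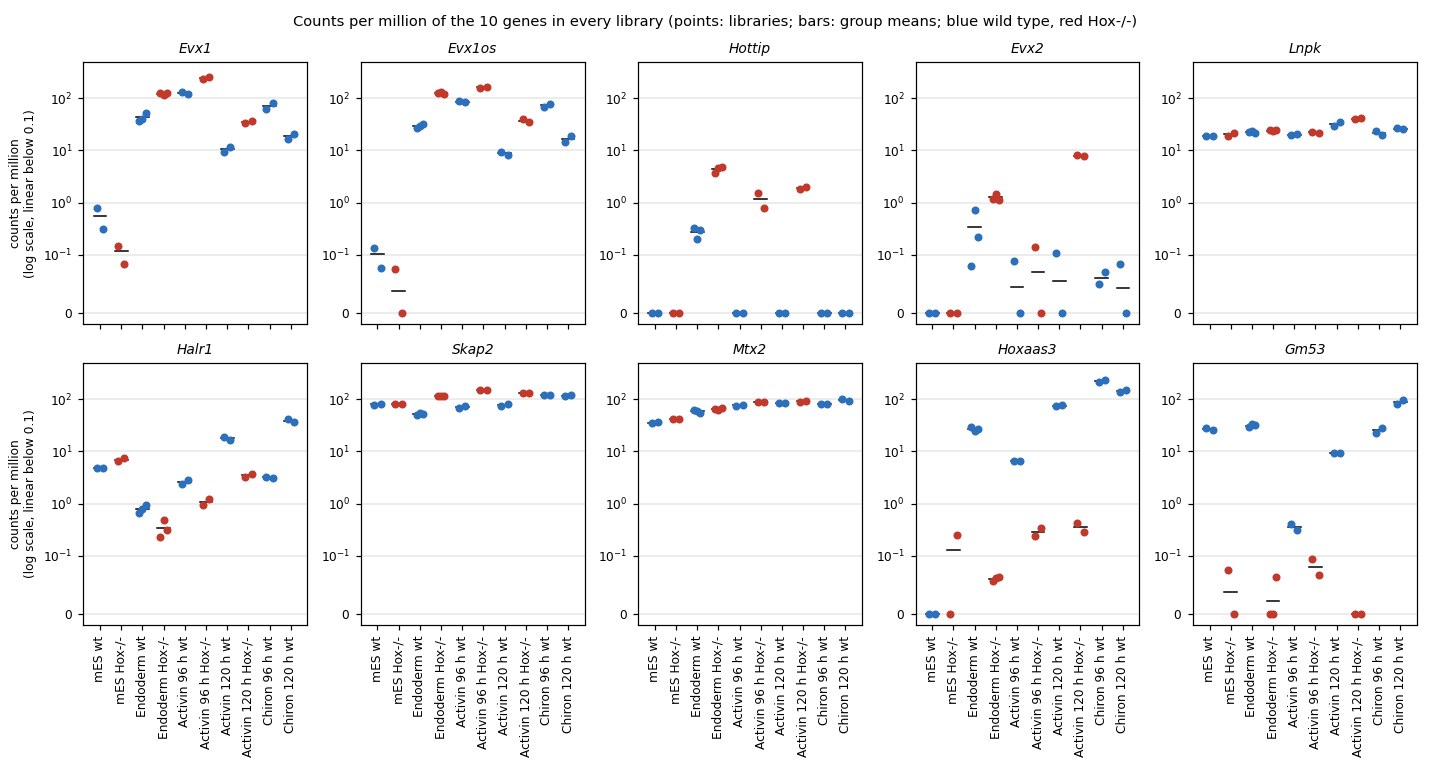
Level in CPM (log scale, linear below 0.1) of each gene in all 22 libraries; points are libraries, bars are group means, blue is wild type and red is Hox-/-. Evx1, Evx1os and Hottip stand higher in every Hox-/- endoderm and gastruloid library than in its wild-type partners, Hoxaas3 and Gm53 stand lower, and Lnpk and Mtx2 move least.

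With Activin A at 120 h, Hottip, Evx1, Evx1os and Evx2, at 1.89 to 52.6 kb beyond a group 13 gene, were higher in Hox-/- libraries. Skap2 was higher there too. Hoxaas3 and Gm53, inside the clusters, were nearly absent from Hox-/- libraries, and Halr1, 41.9 kb from HoxA on the group 1 side, was lower. Of the 10 genes, Lnpk and Mtx2 differed least, by 0.46 and 0.22 on the log2 scale.

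**Figure D2:**
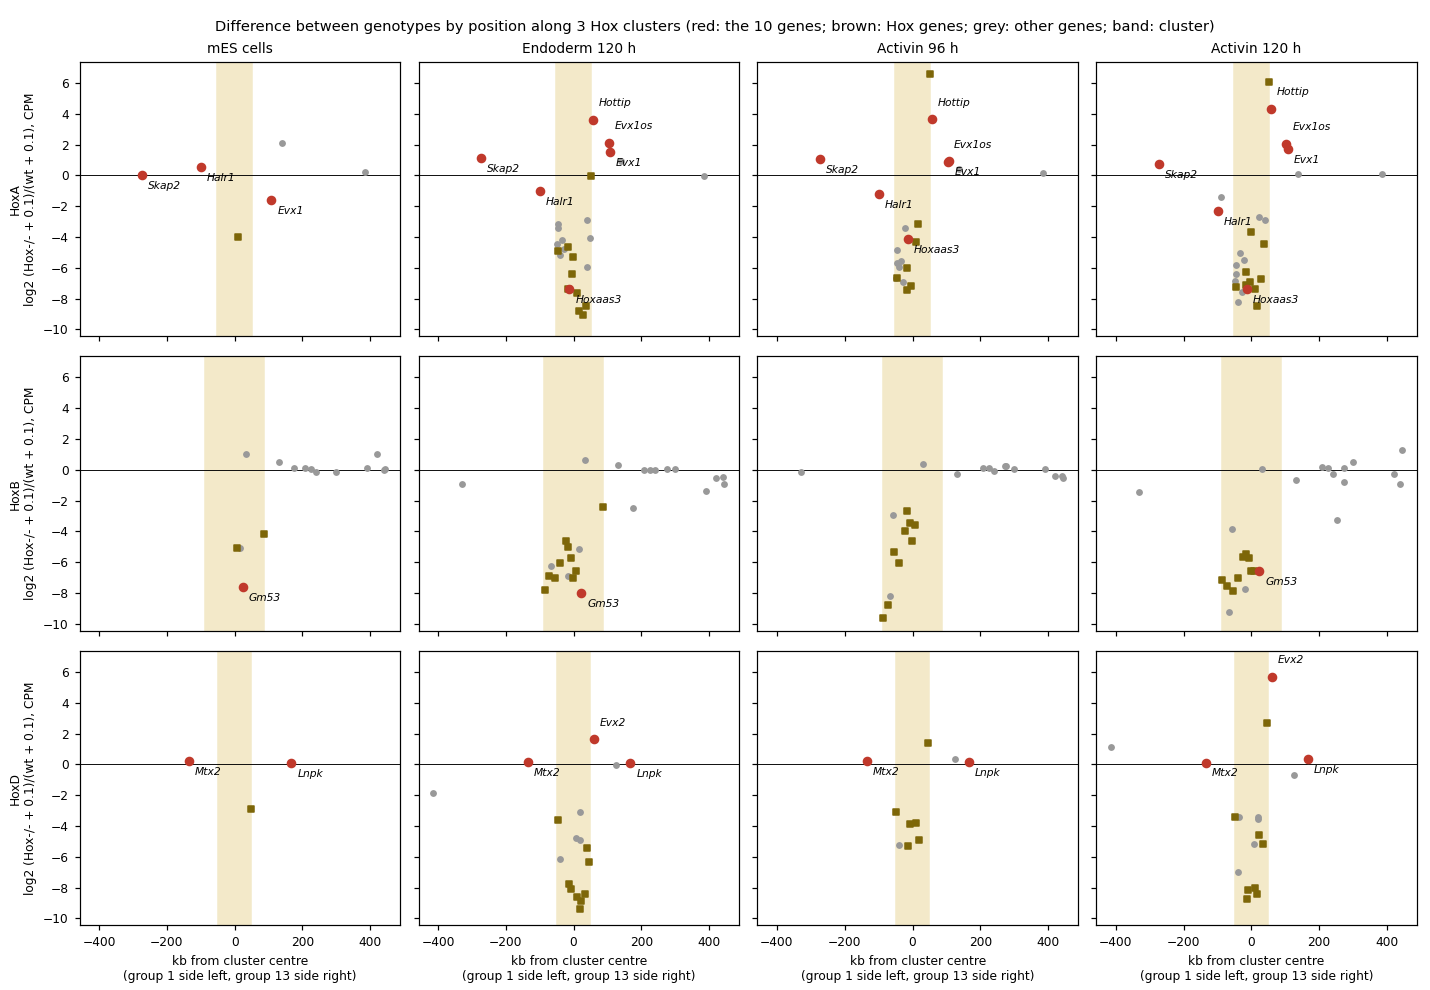
Log2 ratio of mean CPM, Hox-/- over wild type, each with 0.1 CPM added, against position within 450 kb of the centre of HoxA, HoxB and HoxD (group 1 side left, group 13 side right); the band is the cluster, and genes with a mean of at least 0.5 CPM in either genotype are drawn, with 1 gene left out. Within the band most Hox genes lie far below 0, except Hoxa13 and Hoxd13 in some cultures, while Hottip, Evx1os, Evx1 and Evx2, where drawn, lie above 0 to its right in endoderm and gastruloids.

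Evx1, a homeodomain transcription factor of the posterior primitive streak, and Evx1os, the RNA transcribed against it, had their high and low levels in the same cultures across the groups. The gene models overlap by 1335 bases, of which 73 are exonic in both. The kit marks strand, but whether the counting used strand is not stated, so reads of the pair may have been shared. The 250 bases before each start are shown because both RNAs moved together while their starts lie apart, the antisense one within the Evx1 gene (RefSeq, GRCm38.p6; capitals mark CCAAT or its reverse complement ATTGG). They were read from chr6:52313248-52313497 on the plus strand for Evx1 and chr6:52314833-52315082 on the minus strand for Evx1os.
Evx1: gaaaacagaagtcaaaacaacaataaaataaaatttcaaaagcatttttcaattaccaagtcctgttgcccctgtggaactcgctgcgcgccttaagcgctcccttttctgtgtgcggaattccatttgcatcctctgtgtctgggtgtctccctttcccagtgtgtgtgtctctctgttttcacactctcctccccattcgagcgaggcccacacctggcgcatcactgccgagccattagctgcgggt
Evx1os: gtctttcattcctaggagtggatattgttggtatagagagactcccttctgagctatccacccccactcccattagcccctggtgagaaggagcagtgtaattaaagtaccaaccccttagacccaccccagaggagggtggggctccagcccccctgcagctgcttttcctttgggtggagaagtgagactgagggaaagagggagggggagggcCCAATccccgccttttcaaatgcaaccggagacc
The Evx1 window held no CCAAT, and the Evx1os window of 300 bases, from 250 before to 50 after the start, held 2 matches on either strand, of which the one before the start is printed. A CCAAT match occurs in 37.4% of the 32817 promoter windows of the same length. Of the other motifs searched on both strands, CTTTGAT (TCF/LEF, in 3.73% of all windows), AGGTGTGA (T-box, 1.27%), TGTGGATT (FOXH1, 0.856%) and TTTATG (CDX, 11.9%) were not in the windows of the 8 genes matched to the table, and TATAAA (13.6%) was in that of Evx2. The CDX and TATAAA letters share TTTAT or its complement and can overlap. Hoxaas3 and Gm53 were not matched. The printed Evx1 stretch also holds part of an Evx1os exon, read on the other strand.

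Evx1 was nearly silent in mES cells and highest in Activin A gastruloids at 96 h. In mES cells it gave 12 and 4 counts in the wild-type libraries and 2 and 1 in the Hox-/- libraries. In endoderm the wild-type libraries stood at 36.9, 39.7 and 52.8 CPM and the Hox-/- libraries at 127, 118 and 127 CPM. The libraries of the genotypes did not overlap, and the difference was 1.53 on the log2 scale (SE 0.0978), or 2.88-fold.

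With Activin A at 96 h, Evx1 stood at 132 and 122 CPM in wild type against 232 and 253 CPM in Hox-/-. At 120 h the values were 9.51 and 11.4 CPM in wild type against 33.4 and 36.2 CPM in Hox-/-. Hox-/- libraries were higher at both times, by 0.99 (SE 0.0431) and 1.84 (SE 0.114) on the log2 scale. In wild-type Chiron gastruloids Evx1 stood at 63.9 and 81.0 CPM at 96 h and at 16.7 and 20.7 CPM at 120 h, so Activin A was above Chiron at 96 h (log2 difference 0.74, SE 0.0777) and below it at 120 h (-0.87, SE 0.167). The treatment and genotype comparisons share the wild-type Activin A libraries.

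Evx1 fell from 96 h to 120 h in every kind of gastruloid. The log2 change was -3.67 (SE 0.0844, edgeR adjusted p = 1.12e-37) in wild-type Activin A, -2.82 (SE 0.059, edgeR adjusted p = 1.05e-39) in Hox-/- Activin A and -2.08 (SE 0.109, edgeR adjusted p = 7.72e-14) in Chiron gastruloids. From mES cells to endoderm it rose by 6.10 (SE 0.255, edgeR adjusted p = 1.18e-14) in wild type, and by 6.98 without the first wild-type mES library. In Hox-/- cells it also rose (edgeR adjusted p = 2.13e-17), and the ratio of CPM against the 3 counts of the mES libraries was 1045 (exact 95% counting interval 357 to 5067). Whether these changes differed between genotypes was not tested.

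Caudal progenitor markers, an 8-gene list with T and Cdx2, went the same way as Evx1 between genotypes, times and treatments. Their sum was 3151 CPM in wild-type against 4362 CPM in Hox-/- Activin A gastruloids at 96 h, 555 and 664 CPM at 120 h, and 467 and 632 CPM in endoderm. In Chiron gastruloids it was 2164 CPM at 96 h and 714 CPM at 120 h. The part of this list in the Evx1 result was not tested.

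Evx1os followed Evx1 closely. Its levels were 26.5, 29.02 and 32.2 CPM in wild-type against 127, 130 and 124 CPM in Hox-/- endoderm, a log2 difference of 2.12 (SE 0.0664). With Activin A it stood at 89.5 and 84.4 CPM (wild type) and 160 and 164 CPM (Hox-/-) at 96 h, and at 9.51 and 8.12 CPM and 39.7 and 34.9 CPM at 120 h. As for Evx1, every Hox-/- library of these cultures was above every wild-type library, and the gastruloid differences were 0.95 (SE 0.0447) and 2.19 (SE 0.112) on the log2 scale. Chiron libraries stood at 68.8 and 79.7 CPM at 96 h and 14.3 and 19.2 CPM at 120 h, with Activin A above them by 0.16 (SE 0.0716) and then below them (-0.96, SE 0.159).

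Evx1os changed with differentiation and time as Evx1 did. In mES cells it gave 3 counts over the wild-type and 1 over the Hox-/- libraries, and the CPM ratio of endoderm to mES cells was 273 in wild type (exact 95% counting interval 93.2 to 1325; edgeR adjusted p = 1.4e-16) and 3209 in Hox-/- (576 to 126800; edgeR adjusted p = 5.44e-20). From 96 h to 120 h Evx1os fell by 3.37 (SE 0.0893, edgeR adjusted p = 4.99e-35) in wild-type Activin A, by 2.13 (SE 0.0583, edgeR adjusted p = 1.08e-34) in Hox-/- Activin A and by 2.28 (SE 0.0999, edgeR adjusted p = 3.06e-15) in Chiron gastruloids on the log2 scale.

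The balance within the pair was not constant. There were 0.609 to 0.731 counts of Evx1os per count of Evx1 in wild-type endoderm and 0.974 to 1.11 in Hox-/- endoderm. In Activin A gastruloids at 96 h the ratios were close, at 0.681 to 0.690 in wild type and 0.647 to 0.691 in Hox-/-. At 120 h they were 0.712 to 1.00 in wild type and 0.964 to 1.19 in Hox-/-, and these ranges overlapped. Per length, the authors' mean FPKM was 14.7 for Evx1 and 9.39 for Evx1os in wild-type endoderm and 41.7 and 40.8 in Hox-/- endoderm.

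**Figure D3:**
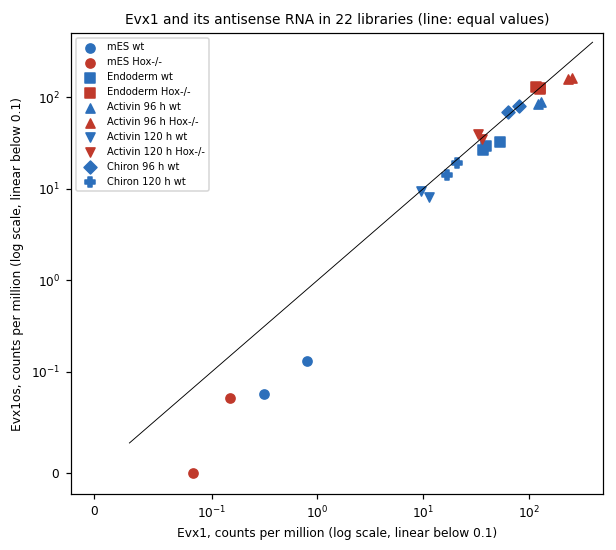
Evx1os against Evx1 in the 22 libraries, both in CPM (log scale, linear below 0.1), with shape for culture, colour for genotype (blue wild type, red Hox-/-) and a line at equal values. Hox-/- endoderm libraries lie close to the line and wild-type endoderm libraries below it, and all Activin A libraries at 96 h lie below it.

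Hottip, a noncoding RNA read away from the group 13 end of HoxA and known for recruiting a histone methyltransferase complex to distal Hoxa genes, was detected mainly under the Hox-/- label. The 250 bases before its start, 1.89 kb beyond Hoxa13, are shown because it is the closest of the genes to a cluster border (RefSeq, GRCm38.p6, chr6:52262525-52262774, plus strand, CCAAT in capitals).
Hottip: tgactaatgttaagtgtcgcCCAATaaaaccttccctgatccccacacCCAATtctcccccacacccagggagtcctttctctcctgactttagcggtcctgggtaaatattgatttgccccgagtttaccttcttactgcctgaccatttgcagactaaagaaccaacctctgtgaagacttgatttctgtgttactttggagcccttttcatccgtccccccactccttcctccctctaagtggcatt
Its window of 300 bases held 3 CCAAT matches, of which the 2 before the start are printed.

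In endoderm, Hottip gave 4, 3 and 4 counts in the wild-type libraries and 66, 76 and 75 in the Hox-/- libraries, or 0.325, 0.198 and 0.292 against 3.75, 4.67 and 4.72 CPM. The groups did not overlap, with a log2 difference of 4.0 (SE 0.299). All 4 wild-type Activin A libraries and all 4 Chiron libraries had 0 counts, which allows a level of up to 0.104 to 0.329 CPM per library (3 counts). The Hox-/- Activin A libraries gave 32 and 12 counts at 96 h and 21 and 21 at 120 h. Set against a floor of 3 counts over the wild-type group, Hox-/- was 19.5-fold and 11.5-fold higher. Such folds take the higher group's counts as they stand, without their counting error. Without the first 96 h library the fold against the floor at 96 h was 12.9. In mES cells of both genotypes it had 0 counts. From mES cells to endoderm, against the same floor, Hottip rose 2.48-fold in wild type (edgeR adjusted p = 0.00368) and 36.8-fold in Hox-/- (edgeR adjusted p = 2e-09). By exact 95% counting limits, Hottip stood at 0.133 to 0.478 CPM in wild-type endoderm and at 0 to 0.132 CPM in wild-type mES cells. Between 96 h and 120 h in Hox-/- Activin A gastruloids its log2 change was 0.63 (SE 0.351, edgeR adjusted p = 0.103). Without the first 96 h library it was 1.20 (edgeR adjusted p = 0.0306). Hottip passed the low-count filter only through Hox-/- libraries, which also entered the genotype differences by which it was chosen. The p-values of this paragraph are therefore no independent support.

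Hoxa13, the nearest Hox gene to Hottip, was higher in Hox-/- gastruloids too, at 39.2 to 39.9 against 0.178 to 0.465 CPM at 96 h and 20.5 to 21.7 against 0.108 to 0.329 CPM at 120 h. In endoderm its libraries overlapped between genotypes, at 7.95 to 9.41 CPM in wild type against 6.55 to 9.94 CPM in Hox-/-, while those of Hottip did not. The number of Hottip counts per Hoxa13 count was 0.0226 to 0.0408 in wild-type endoderm, 0.377 to 0.721 in Hox-/- endoderm, 0.0201 to 0.0382 in Hox-/- Activin A gastruloids at 96 h and 0.0833 to 0.0959 at 120 h. Hottip and Hoxa13 therefore did not keep one ratio across the Hox-/- groups. Hottip also overlaps 3 annotated RNAs on its own strand, Gm27985, Gm27383 and Gm27866. They share 195, 361 and 171 of its 2879 exonic bases, so its counts are uncertain.

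Evx2, the homologue of Evx1 beside HoxD, gave more than 3 counts only in endoderm and in Hox-/- Activin A gastruloids at 120 h. The most alike stretch of 180 coding bases in the genes, from the end of the homeobox onwards, is shown because it bears on whether their reads can be told apart (GENCODE M21, GRCm38; capitals mark the bases that differ).
Evx1: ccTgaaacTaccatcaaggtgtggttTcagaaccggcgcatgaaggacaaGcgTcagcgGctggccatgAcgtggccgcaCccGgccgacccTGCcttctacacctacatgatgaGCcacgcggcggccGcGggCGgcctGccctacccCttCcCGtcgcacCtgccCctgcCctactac
Evx2: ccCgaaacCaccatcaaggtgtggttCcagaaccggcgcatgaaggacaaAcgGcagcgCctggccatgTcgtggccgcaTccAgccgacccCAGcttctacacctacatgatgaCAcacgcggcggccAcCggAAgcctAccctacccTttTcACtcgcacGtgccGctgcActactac
The stretch spans bases 667 to 846 of the Evx1 and 691 to 870 of the Evx2 coding sequence, with 154 identical bases and 26 different ones (85.6% identity), and its longest run without a difference is 23 bases.

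Evx2 had 0 counts in all mES libraries and 0 to 2 counts in each Chiron and wild-type Activin A library. In endoderm it gave 1, 11 and 3 counts in wild type and 21, 24 and 18 in Hox-/-, or 0.0811, 0.726 and 0.219 against 1.19, 1.48 and 1.13 CPM. The log2 difference was 1.79 (SE 0.467), and it was 2.98 without the second wild-type library, which held 11 of the group's 15 counts. In Hox-/- Activin A gastruloids it gave 3 and 0 counts at 96 h and 93 and 84 at 120 h, where wild type gave 1 and 0. The ratio of CPM between genotypes at 120 h was 146 (exact 95% counting interval 25.8 to 5789).

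From 96 h to 120 h Evx2 rose in Hox-/- Activin A gastruloids, with a CPM ratio of 96.2 (exact 95% counting interval 32.4 to 471, edgeR adjusted p = 5.63e-19). Both wild-type times were at or under 3 counts. Evx1 fell over the same interval, so the homologues moved in opposite directions in these libraries. In this fit Evx2 passed the low-count filter only through the Hox-/- libraries at 120 h. Those libraries also entered the genotype difference by which Evx2 was chosen, so its p-value is no independent support. From mES cells to endoderm Evx2 rose 3.39-fold against a floor of 3 counts in wild type (edgeR adjusted p = 0.00615). That fold was 1.43 without the second endoderm library (edgeR adjusted p = 0.0351). In Hox-/- it rose 10.7-fold against the floor (edgeR adjusted p = 4.05e-05). By exact 95% counting limits, Evx2 stood at 0.204 to 0.60 CPM in wild-type endoderm and at 0 to 0.132 CPM in wild-type mES cells. These p-values are no independent support either, as Evx2 passed the filter here through Hox-/- endoderm. Hoxd13, 8.75 kb from Evx2, was at 41.5 to 46.5 CPM in wild-type endoderm and 0.369 to 0.625 CPM in Hox-/- endoderm, below wild type where Evx2 was above it. In Activin A gastruloids at 120 h Hoxd13 gave 9 counts over the wild-type and 83 over the Hox-/- libraries.

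Halr1, a noncoding RNA between Skap2 and HoxA that is known to act on the Hoxa genes in stem cells, was the one gene outside the clusters that was lower in Hox-/- endoderm and gastruloids. It stood at 0.649, 0.791 and 0.948 CPM in wild-type against 0.227, 0.492 and 0.315 CPM in Hox-/- endoderm, from 8 to 13 and 4 to 8 counts. Gastruloids given Activin A stood at 2.35 and 2.87 CPM (wild type) and 0.935 and 1.20 CPM (Hox-/-) at 96 h, and at 18.9 and 16.7 CPM and 3.19 and 3.74 CPM at 120 h. In mES cells the order was turned, with 4.78 and 4.90 CPM in wild type against 6.42 and 7.48 CPM in Hox-/-. The log2 differences were -1.20 (SE 0.405) in endoderm, -1.27 (SE 0.261) and -2.25 (SE 0.179) in gastruloids at 96 h and 120 h, and 0.51 (SE 0.176) in mES cells, and in each the libraries of the genotypes did not overlap.

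Halr1 fell from mES cells to endoderm and rose between 96 h and 120 h in all 3 kinds of gastruloid. The fall was 2.699 on the log2 scale in wild type (SE 0.256, edgeR adjusted p = 5.92e-09) and 4.39 in Hox-/- (SE 0.274, edgeR adjusted p = 6.86e-12). The rise was 2.68 in wild-type Activin A (SE 0.158, edgeR adjusted p = 1.22e-20), 1.70 in Hox-/- Activin A (SE 0.285, edgeR adjusted p = 7.09e-07) and 3.50 in Chiron gastruloids (SE 0.126, edgeR adjusted p = 7.38e-17). In Chiron gastruloids it stood at 3.21 and 3.12 CPM at 96 h and 41.1 and 35.9 CPM at 120 h, and the difference of Activin A from Chiron was -0.33 (SE 0.181) and -1.17 (SE 0.113) on the log2 scale.

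Skap2, an adaptor of Src-family kinase signalling and the far neighbour of HoxA, was expressed in every library, with close levels in mES cells of both genotypes and higher levels in Hox-/- endoderm and gastruloids. In mES cells it stood at 79.0 and 80.2 CPM in wild type against 81.0 and 82.1 CPM in Hox-/-, a log2 difference of 0.03 (SE 0.0593). In endoderm it stood at 50.9, 54.0 and 52.2 CPM in wild type against 114, 114 and 117 CPM in Hox-/-. That difference, 1.14 on the log2 scale (SE 0.051), was close to the 1.13 (SE 0.0448) in Activin A gastruloids at 96 h and above the 0.85 (SE 0.0549) at 120 h.

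In Activin A gastruloids Skap2 stood at 69.05 and 73.7 CPM in wild type against 153 and 148 CPM in Hox-/- at 96 h, and at 76.0 and 82.3 CPM against 134 and 130 CPM at 120 h. Chiron gastruloids, all wild type, stood at 117 to 119 CPM at both times, above wild-type Activin A (log2 difference -0.80, SE 0.0542, at 96 h and -0.63, SE 0.0626, at 120 h). From mES cells to endoderm Skap2 fell by 0.72 in wild type (SE 0.0547, edgeR adjusted p = 1.99e-10) and rose by 0.41 in Hox-/- (SE 0.0523, edgeR adjusted p = 4.46e-07). Over time it fell by 0.21 in Hox-/- Activin A gastruloids (SE 0.0459, edgeR adjusted p = 8.79e-05); in wild type the changes were 0.07 (SE 0.0547, edgeR adjusted p = 0.226) with Activin A and -0.11 (SE 0.0557, edgeR adjusted p = 0.0812) with Chiron. On the authors' FPKM scale the Hox-/- fall over time missed the threshold (limma adjusted p = 0.0975 with a pseudocount of 1).

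Lnpk, a protein of endoplasmic reticulum junctions, and Mtx2, a part of the mitochondrial outer membrane import machinery, flank HoxD and differed least between genotypes in gastruloids at 120 h. Lnpk group means ranged from 19.2 to 41.1 CPM and those of Mtx2 from 35.6 to 95.5 CPM. At 120 h with Activin A, Lnpk stood at 29.5 and 34.9 CPM in wild type against 40.6 and 41.5 CPM in Hox-/- (log2 difference 0.46, SE 0.0835). At 96 h its difference was 0.20 (SE 0.0779), and it changed sign on the authors' FPKM scale. In endoderm the libraries overlapped, at 21.6 to 23.2 against 23.2 to 24.5 CPM, and in mES cells at 19.2 to 19.3 against 19.3 to 21.8 CPM. From mES cells to endoderm the Lnpk change was 0.11 in wild type (SE 0.0874, edgeR adjusted p = 0.254) and 0.15 in Hox-/- (SE 0.0859, edgeR adjusted p = 0.112). With at least 10 counts required in every library the Hox-/- change passed (0.19, edgeR adjusted p = 0.0449). Scaled by library totals alone, both passed (0.23 in each, edgeR adjusted p = 0.0222 in wild type and 0.0176 in Hox-/-).

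Lnpk rose from 96 h to 120 h with Activin A in wild type (log2 change 0.61, SE 0.0843, edgeR adjusted p = 1.21e-08) and in Hox-/- (0.87, SE 0.0786, edgeR adjusted p = 6.32e-14). In Chiron gastruloids its change was 0.18 (SE 0.1, edgeR adjusted p = 0.127), and 0.33 without the first 96 h library (edgeR adjusted p = 0.00413). Mtx2 rose from mES cells to endoderm by 0.61 in wild type (SE 0.0661, edgeR adjusted p = 4.86e-08) and by 0.57 in Hox-/- (SE 0.0644, edgeR adjusted p = 8.6e-08). It stood at 34.7 and 36.5 CPM in wild-type against 41.1 and 41.7 CPM in Hox-/- mES cells, and its genotype differences lay between 0.15 and 0.28 on the log2 scale in all 4 cultures. Its changes with time were 0.09, 0.03 and 0.13 on the log2 scale (edgeR adjusted p = 0.115, 0.594 and 0.0669 in wild-type Activin A, Hox-/- Activin A and Chiron gastruloids). The Chiron value passed without the first 96 h library (edgeR adjusted p = 0.00926) or the second 120 h library (0.0309). Activin A differed from Chiron by -0.18 and 0.24 for Lnpk and by -0.16 and -0.22 for Mtx2 at 96 h and 120 h on the log2 scale.

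Hoxaas3 and Gm53, the RNAs inside the clusters, were close to 0 in every Hox-/- library, at 0 to 5 counts for Hoxaas3 and 0 to 2 for Gm53. In wild-type cells they had different patterns. Hoxaas3 gave 0 counts in both wild-type mES libraries, while Gm53 stood at 27.8 and 25.3 CPM there. In wild-type endoderm Hoxaas3 stood at 29.1, 24.7 and 27.1 CPM and Gm53 at 28.96, 32.9 and 31.4 CPM.

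The CPM of Hoxaas3 was 445 times as high in wild-type as in Hox-/- endoderm (exact 95% counting interval 152 to 2159), 23.9 times in Activin A gastruloids at 96 h (12.8 to 50.4) and 212 times at 120 h (107 to 491). For Gm53 the ratio was 674 in mES cells (121 to 26640), 1554 in endoderm (278 to 61410) and 4.26 in Activin A gastruloids at 96 h (1.23 to 22.7), and at 120 h it was at least 69.6-fold lower in Hox-/-. The small ratio of Gm53 at 96 h came with 9 and 8 counts in wild type.

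Chiron gastruloids had the most Hoxaas3, at 215 and 234 CPM at 96 h and 136 and 152 CPM at 120 h. Wild-type Activin A gastruloids stood at 6.49 and 6.67 CPM at 96 h and 75.3 and 76.5 CPM at 120 h. Hoxaas3 therefore fell with time in Chiron (log2 change -0.75, SE 0.0558, edgeR adjusted p = 5.12e-11) and rose in wild-type Activin A gastruloids (3.45, SE 0.0875, edgeR adjusted p = 7.51e-36). In the Activin A fit it passed the low-count filter only through wild-type libraries. These also entered the genotype differences by which Hoxaas3 was chosen, so the p-value with Activin A is no independent support. Activin A was below Chiron by 5.16 (SE 0.0762) at 96 h and 0.97 (SE 0.0647) at 120 h on the log2 scale. Hoxaas3 overlaps 8 annotated genes, with 586 exonic bases shared with Hoxa7 and 297 with Hoxa3 on the opposite strand, so its counts are uncertain. There were 4.31 to 4.86 Hoxaas3 counts per Hoxa7 count in Chiron gastruloids at 96 h and 1.25 to 1.32 at 120 h, and 1.20 to 1.54 and then 3.03 to 3.47 in wild-type Activin A gastruloids. The ratio was thus lower at 120 h with Chiron and higher at 120 h with Activin A. In the authors' FPKM table Hoxaas3 is listed at 0 in both wild-type Activin A libraries at 96 h, which hold 146 and 172 counts.

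Gm53, a noncoding RNA near Hoxb9, rose with time in both kinds of wild-type gastruloid. It stood at 23.0 and 27.6 CPM and then 79.9 and 96.5 CPM with Chiron (log2 change 1.68, SE 0.0869, edgeR adjusted p = 6.47e-14), and at 0.400 and 0.310 CPM and then 9.30 and 9.44 CPM with Activin A (4.63, SE 0.282, edgeR adjusted p = 5.72e-20). Activin A libraries were below Chiron libraries, by 6.21 (SE 0.198) at 96 h and 3.28 (SE 0.121) at 120 h on the log2 scale. From wild-type mES cells to endoderm its log2 change was 0.11 (SE 0.0981, edgeR adjusted p = 0.303). Hoxaas3 rose 250-fold there against a floor of 3 counts (edgeR adjusted p = 8.48e-15). In that fit Hoxaas3 passed the low-count filter only through wild-type endoderm. Gm53 passed it in the Activin A fit only through wild-type libraries. Those libraries also entered the genotype differences by which both were chosen. The p-values of Hoxaas3 here and of Gm53 with Activin A are therefore no independent support. There were 4.17 to 4.37 Gm53 counts per Hoxb9 count in wild-type mES cells, 0.932 to 1.21 in endoderm, 0.0914 to 0.111 in Chiron gastruloids at 96 h and 0.336 to 0.411 at 120 h, and 0.0879 to 0.103 and then 0.110 to 0.120 in wild-type Activin A gastruloids.

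**Figure D4:**
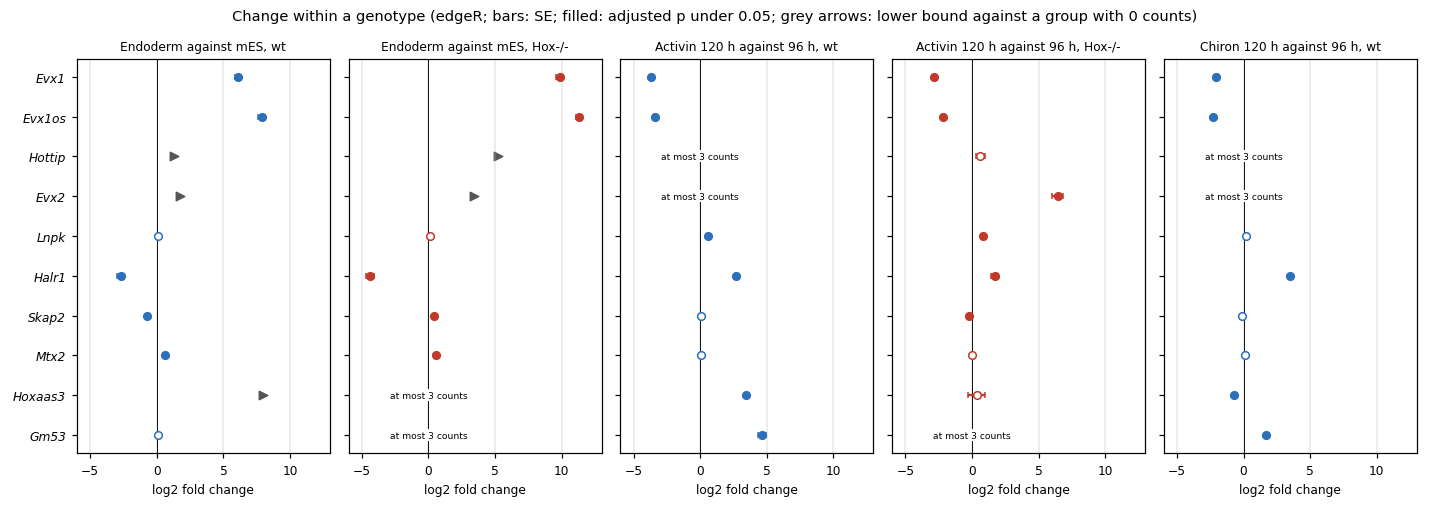
Log2 change within a genotype for the 10 genes in the 5 tested comparisons (edgeR). Bars are SE and filled points have an adjusted p under 0.05. Grey arrows are folds against a floor of 3 counts in a group with 0 counts, and "at most 3 counts" marks genes with no fold. Evx1 and Evx1os lie right of 0 for endoderm against mES cells and left of 0 for every 120 h against 96 h comparison, and Halr1 does the reverse.

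Counted over the tested comparisons, the shares of these genes past the threshold were near those of all genes or below them. Evx2 and Hottip were among the 10 tested only through Hox-/- libraries. Hoxaas3 and Gm53 stood in the Hox-/- comparisons only through wild-type libraries. Some of the 10 had at most 3 counts in both groups and could hardly pass. These were Hoxaas3 and Gm53 from Hox-/- mES cells to endoderm. Over time with Activin A they were Evx2 and Hottip in wild type and Gm53 in Hox-/-. Nothing is therefore read from the shares. From mES cells to endoderm 6 of 10 rose and 2 fell in wild type, where 79.9% of all genes tested passed (41.6% rose and 38.3% fell). In Hox-/- 6 of 10 rose and 1 fell, where 80.6% passed (42.7% and 37.9%). Between 96 h and 120 h, 4 of 10 rose and 2 fell in wild-type Activin A gastruloids, where 74.9% of all genes passed (37.2% and 37.8%). In Hox-/- gastruloids 3 of 10 rose and 3 fell, where 72.4% passed (34.9% and 37.6%), and in Chiron gastruloids 2 of 8 rose and 3 fell, where 61.7% passed (28.5% and 33.2%).

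For the comparisons by which the genes were chosen, the counts are a description from which nothing is read. Between genotypes in mES cells, 5 of the 10 genes passed the filter on low counts, 2 higher and 1 lower in Hox-/-, where 23.2% of all genes passed the threshold (12.4% higher and 10.8% lower). The 2 higher were Mtx2 and Halr1, which DESeq2 did not call, and the lower was Gm53; without either wild-type library, or without the second Hox-/- library, edgeR called 1 gene. In endoderm 6 of 10 were higher and 3 lower (46.2% of all genes, 23.1% in each direction). With Activin A 6 were higher and 3 lower of 10 at 96 h (38.9%, or 22.2% higher and 16.7% lower) and 7 were higher and 3 lower at 120 h (50.4%, or 24.9% and 25.5%). Between treatments 1 was higher and 4 lower of 8 at 96 h (61.6%, or 31.3% and 30.2%), and 0 were higher and 7 lower of 8 at 120 h (41.9%, or 20.3% and 21.6%).

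The other annotated genes within 1 Mb of a cluster, 267 in all, divided by whether they lay inside it. Of the 41 inside, 16 were tested in endoderm, and 15 were lower and 1 higher in Hox-/-, with a median log2 difference of -7.86 beside 0.002 over all genes. At 96 h with Activin A 12 of 16 were lower and 1 higher, and 15 of 16 were lower at 120 h. Of the 226 outside, the share called was 50% in endoderm, 39.6% at 96 h and 56.4% at 120 h, against 46.2%, 38.9% and 50.4% of all genes, with median log2 differences of -0.02, 0.02 and 0. In mES cells 14 were higher and 12 lower of 90 tested outside, or 28.9% called, against 23.2% of all genes.

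By size of difference among neighbours with a mean of at least 1 CPM, the largest in endoderm and gastruloids lay inside the clusters. Haglr, read from HoxD, was at 6.84 CPM in wild-type endoderm and 12.6 CPM in wild-type Activin A gastruloids at 120 h, and at 0 in the Hox-/- libraries of both. Hoxb3os was at 56.3 CPM against 0.0902 CPM at 96 h and 145 against 0.137 CPM at 120 h, and Hotairm1, a noncoding RNA of HoxA, at 10.2 against 0 CPM at 96 h. Gm27477 was at 5.16 and 8.56 CPM in wild-type gastruloids at 96 h and 120 h and at 0 in Hox-/-. The gene 5730596B20Rik in HoxA was at 2.67 against 0 CPM in endoderm, and the microRNA gene Mir196a-1 in HoxB at 3.43 against 0 CPM there and 3.34 against 0 CPM in mES cells. Also in mES cells, the keratin gene Krt8, 917 kb beyond Hoxc13, was at 9.48 CPM in wild type against 2.42 CPM in Hox-/-, and the pseudogene Gm8129, 85.8 kb beyond Hoxa13, at 0.460 and 2.31 CPM.

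Across the 10 group means, over 17401 genes, the pattern most like that of Evx1 was that of Evx1os (Pearson r = 0.995 on log2 of mean CPM plus 1), followed by Spred1 (0.988) and Atad1 (0.979). These and the following are descriptions over 10 points that share libraries and depth. Hoxaas3 was most like Hoxb8 (0.995), Hottip most like Cacng8 (0.918), Evx2 most like Lamc3 (0.971), Halr1 most like Gm10033 (0.969) and Gm53 most like 2810455O05Rik (0.964). Lnpk was most like Cdh15 (0.972), Mtx2 most like Ptp4a1 (0.989) and Skap2 most like Cdc27 (0.887). Between the homologues Evx1 and Evx2 the value was 0.201, between the neighbours Evx2 and Lnpk 0.755, and between Hottip and Evx1 0.483.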

How the data were processed

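The authors deposited raw counts per gene and FPKM values (fragment numbers divided by gene length and by depth) from poly(A) RNA libraries made with a strand-marking kit, per the labels' protocols. The submitters' processing notes name cutadapt 1.16, STAR 2.7.7a, Cufflinks 2.2.1 and the mm10 build; whether counting used strand is not given in the sources used here. The members and gene lists were chosen with earlier results of these data known, and the split of neighbours into inside and outside a cluster was made after values were seen. Counts were tested with edgeR 4.0.16 (R 4.3.3): default low-count filter, TMM scaling, quasi-likelihood test, Benjamini-Hochberg adjustment over all genes tested and a threshold of 0.05. Stem cells and endoderm were fitted per table for genotype and jointly for differentiation; each gastruloid table was fitted whole. The 4 wild-type Activin A libraries were identical in both gastruloid tables. CPM used library totals (9108085 to 28819301 counts). Exact 95% intervals cover counting error only. A fold against the floor of 3 counts covers it only on the side with 0 counts, and takes the other group's counts as they stand. Named are the 10 members, outermost Hox genes, the 3 neighbours with the largest genotype difference in each culture and the genes most alike across groups. No 2 libraries of the same group held identical counts. The fit was tested on simulated data. Alternatives used DESeq2 1.42.0, limma 3.58.1 on log2 of FPKM with a pseudocount of 1 or 0.1, other scalings, stricter filters, a replicate block and leaving out each library. One Hox gene is not reported here.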

Additional observations from a re-analysis of the deposited data

Results flagged for a closer look

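In each of the following, the libraries of the compared groups did not overlap, and the direction differed between like comparisons. The difference between those comparisons was not tested in any of them. How many of all genes met this rule is not given. Evx1 in Hox-/- mES cells had a CPM ratio to wild type of 0.2071, from 3 counts against 16, while in endoderm and in Activin A gastruloids at 96 h and 120 h its log2 difference was 1.53, 0.99 and 1.84. Halr1 was above wild type in Hox-/- mES cells (log2 difference 0.51) and below it in endoderm (-1.20) and in Activin A gastruloids at 96 h (-1.27) and 120 h (-2.25). Activin A was above Chiron at 96 h and below it at 120 h for Evx1 (0.74 and -0.87) and for Evx1os (0.16 and -0.96). Skap2 went down from mES cells to endoderm in wild type (-0.72) and up in Hox-/- (0.41). From 96 h to 120 h with Activin A, Skap2 differed by 0.07 in wild type, which did not pass the threshold (edgeR adjusted p = 0.226), and by -0.21 in Hox-/-. Hoxaas3 went up over the same interval in wild-type Activin A gastruloids (3.45) and down in Chiron gastruloids (-0.75).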

How the results depend on the processing

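Of 635 recomputed log2 differences between genotypes or treatments, 552 stayed within 1 SD of the library spread, 79 moved and 4 turned direction; of 519 recomputed tested changes, 504 kept direction and side of the threshold, 13 passed only in the alternative and 2 failed only there. The 4 were at 96 h with Activin A in limma on FPKM with pseudocounts of 1 and 0.1: Lnpk at -0.13 and -0.14, and Hoxaas3 at 0.25 and 1.53, whose FPKM is listed at 0 in wild type. The 2 were Skap2 over time in Hox-/- (-0.13 in both FPKM fits). In mES cells the genotype count of 3 became 1 with DESeq2 and in both FPKM fits, and ranged from 1 to 3 when single libraries were left out; the cause was not tested. Requiring at least 10 counts in every library, which leaves fewer of the genes tested, gave 4 of 5 in endoderm, 5 of 6 and 6 of 6 in Activin A gastruloids at 96 h and 120 h, and 2 of 3 (wild type) and 3 of 3 (Hox-/-) from mES cells to endoderm. Replicate numbers were not taken to pair the libraries. Correlations of same-numbered libraries ran from -0.238 to 0.282 over all comparisons. The highest, 0.258 and 0.282 from Hox-/- mES cells to endoderm, came from 2 pairs. With the replicate block the genotype counts were 3, 8, 9 and 10, the treatment counts 6 and 7, and the tested counts 8, 7, 6, 6 and 5. Counts under this block and under the stricter filter stand without the shares of all genes in those settings, so nothing is read from them. Scaling by library totals alone, chosen after seeing the data, moved the median of all genes by -0.112 (genotype, 120 h), 0.117 (wild-type differentiation) and 0.104 (Chiron, time), and the higher share of called genes from 57.0% to 42.5% and from 49.4% to 34.6% for genotype at 96 h and 120 h. No direction of the 10 genes changed with that scaling, with DESeq2 size factors or in DESeq2. With library totals alone, however, Lnpk (0.23) and Gm53 (0.23) from wild-type and Lnpk (0.23) from Hox-/- mES cells to endoderm passed. So did Skap2 (0.15) and Mtx2 (0.16) over time in wild-type Activin A, and Lnpk (0.28) and Mtx2 (0.23) with Chiron. Over all genes, mES genotype calls numbered 3168 with edgeR and 954 with DESeq2, and those at 96 h 6546 and 3195. Levels under 10 counts, as for Evx2 and Hottip in wild type, are limited by depth.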
